A study of Homo sapiens with 12 samples.

Results

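The hypoxia-inducible factors (HIF) and the enzymes that control them were followed through the gene symbols HIF1A, EPAS1, ARNT, EGLN1, EGLN2, EGLN3, HIF1AN, VHL, CITED2 and KDM3A, a fixed set of 10 of the 25370 genes in a count table from T47D cells. All 10 had reads and were among the 21132 genes tested. T47D is an established line of luminal, estrogen receptor-positive breast cancer, and the study asked whether anastrozole, an aromatase inhibitor, acts on its transcriptome as estradiol (E2) does. RNA-seq libraries were made in triplicate for 4 groups: cells given vehicle only, cells given 10 nM anastrozole, cells given 0.1 nM E2, and cells given the 2 agents together at those doses. Every group, vehicle included, had first spent 48 hours in RPMI 1640 with 5% charcoal-stripped serum and 24 hours in medium free of serum. All 4 groups thus started from estrogen-deprived, serum-starved cells of 1 line. The labels give a treatment time of 12 hours and the study's methods 24 hours. The replicates are lettered a, b and c, and the study's methods speak of independent experiments for gene expression in general. The labels do not say that these libraries came from separate cultures, so p-values measure the spread between these samples, which may be technical.

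HIF is a heterodimer of an oxygen-labile alpha subunit, HIF-1alpha (HIF1A) or HIF-2alpha (EPAS1), and the constant partner ARNT. With oxygen present, the prolyl hydroxylases EGLN1, EGLN2 and EGLN3 mark the alpha subunit for the ubiquitin ligase that contains VHL, and the asparaginyl hydroxylase HIF1AN keeps it from its coactivators; both kinds of enzyme use oxygen and 2-oxoglutarate. EGLN1, EGLN3, CITED2 and KDM3A are themselves known HIF targets, so their transcripts are commonly read as a report on HIF activity, while the alpha subunits are regulated mainly as proteins, which RNA-seq does not measure.

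The promoters of 4 members are shown first, because EGLN1, EGLN3 and KDM3A were called higher both with E2 and with the combination, and CITED2 with neither. The 250 bases before each start site come from RefSeq (GRCh38.p14) and read 5′ to 3′ on the gene's strand. Capitals mark ACGTG and GCGTG, the core letters of the hypoxia response element, searched on both strands. The windows are chr1:231422288-231422537 (minus strand) for EGLN1, chr14:33951075-33951324 (minus) for EGLN3, chr2:86441121-86441370 (plus) for KDM3A and chr6:139374649-139374898 (minus) for CITED2.
EGLN1: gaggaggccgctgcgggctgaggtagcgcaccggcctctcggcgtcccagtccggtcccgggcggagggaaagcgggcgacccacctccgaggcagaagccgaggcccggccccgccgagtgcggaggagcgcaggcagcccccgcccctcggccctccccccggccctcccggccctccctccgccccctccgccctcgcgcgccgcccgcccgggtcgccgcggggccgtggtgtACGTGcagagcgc
EGLN3: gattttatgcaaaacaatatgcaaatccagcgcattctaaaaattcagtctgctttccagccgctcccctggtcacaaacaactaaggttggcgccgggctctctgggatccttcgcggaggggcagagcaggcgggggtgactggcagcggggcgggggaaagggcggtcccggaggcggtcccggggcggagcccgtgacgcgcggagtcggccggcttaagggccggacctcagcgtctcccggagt
KDM3A: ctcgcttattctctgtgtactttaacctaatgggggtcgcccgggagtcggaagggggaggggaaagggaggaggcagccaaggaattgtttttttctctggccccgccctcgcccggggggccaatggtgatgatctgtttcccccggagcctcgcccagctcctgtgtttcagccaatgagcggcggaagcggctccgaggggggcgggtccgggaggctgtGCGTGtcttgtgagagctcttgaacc
CITED2: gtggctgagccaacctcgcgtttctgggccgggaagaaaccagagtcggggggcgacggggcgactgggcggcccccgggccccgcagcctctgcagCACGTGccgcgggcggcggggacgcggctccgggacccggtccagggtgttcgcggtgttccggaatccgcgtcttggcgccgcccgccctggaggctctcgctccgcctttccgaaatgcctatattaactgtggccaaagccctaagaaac
EGLN1 held 1 ACGTG, KDM3A 1 GCGTG and EGLN3 neither. In CITED2 the letters CACGTG hold ACGTG once on each strand, 2 overlapping matches. Among 27305 RefSeq promoters of the same length, ACGTG occurred in 18.7%, GCGTG in 31.9% and either in 43.1%. The full palindromic estrogen response element occurred in 0.0439% of them and in no member. Of the other members, HIF1A and EPAS1 each held 1 GCGTG, EGLN2 held a CACGTG, and ARNT and HIF1AN held none. RefSeq promoters matched 9 of the 10 symbols. A match describes the letters only.

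Library depth ran from 9914250 to 17009800 gene-assigned reads, which was 32.7% to 33.5% of all reads. Between 58.6% and 59.9% of reads fell in no annotated gene. All 9 luminal epithelial markers were present, with a summed level in CPM (read counts scaled to library size, with the trimmed mean of M values) of 11094 to 11188 in vehicle, 10134 to 10900 with anastrozole, 10479 to 10733 with E2 and 10741 to 10972 with both. Every treated library was thus below vehicle in this sum, and with E2 5 of the 9 markers were called lower and 0 higher; the part of this in the members' results was not tested. Of 12 markers of basal, stromal, endothelial, immune and fat cells, 7 had 3 counts or fewer in every library and COL1A1 alone made up most of the summed 83.5 to 102.6 CPM. Fold changes also followed GC content: over 10847 genes averaging at least 3 log2 CPM, Spearman's rho between exonic GC and the log2 fold change was -0.53 with anastrozole, -0.55 with E2 and -0.03 with both. These are correlations across genes, which are not independent replicates. The median exonic GC was 47.6%, and among the members HIF1A was the lowest at 38.7%. Fits with the trend removed are given for members beside the results and gathered after the interaction.

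In vehicle, levels per kilobase of exon spanned a wide range. CITED2, a small transcriptional regulator that competes with HIF-1alpha for coactivators, was highest at 46.8 ± 1.58 CPM per kilobase (SD, n = 3), followed by HIF1A at 35.7 ± 1.43. VHL at 21.8 ± 0.791 and EGLN1 at 21.6 ± 0.986 overlapped, as did HIF1AN at 15.2 ± 0.416 and ARNT at 14.5 ± 0.814. KDM3A stood at 10.6 ± 0.285 and EPAS1 at 5.20 ± 0.232. EGLN3 was lowest at 1.12 ± 0.106, so HIF1A was the main alpha subunit transcript and EGLN1 the main prolyl hydroxylase transcript that could be read. Lengths are those of all annotated exons merged (GENCODE 44 on GRCh37), so a gene with many minor exons is understated. EGLN2 could not be ranked: its symbol had 2 to 10 counts per library, RAB4B and the readthrough RAB4B-EGLN2 were listed at 0 in every library, and RAB4B-EGLN2 covers 30.6% of the EGLN2 exon bases on the same strand. The value listed for EGLN2 is therefore uncertain and may not measure its transcript.

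**Figure D1:**
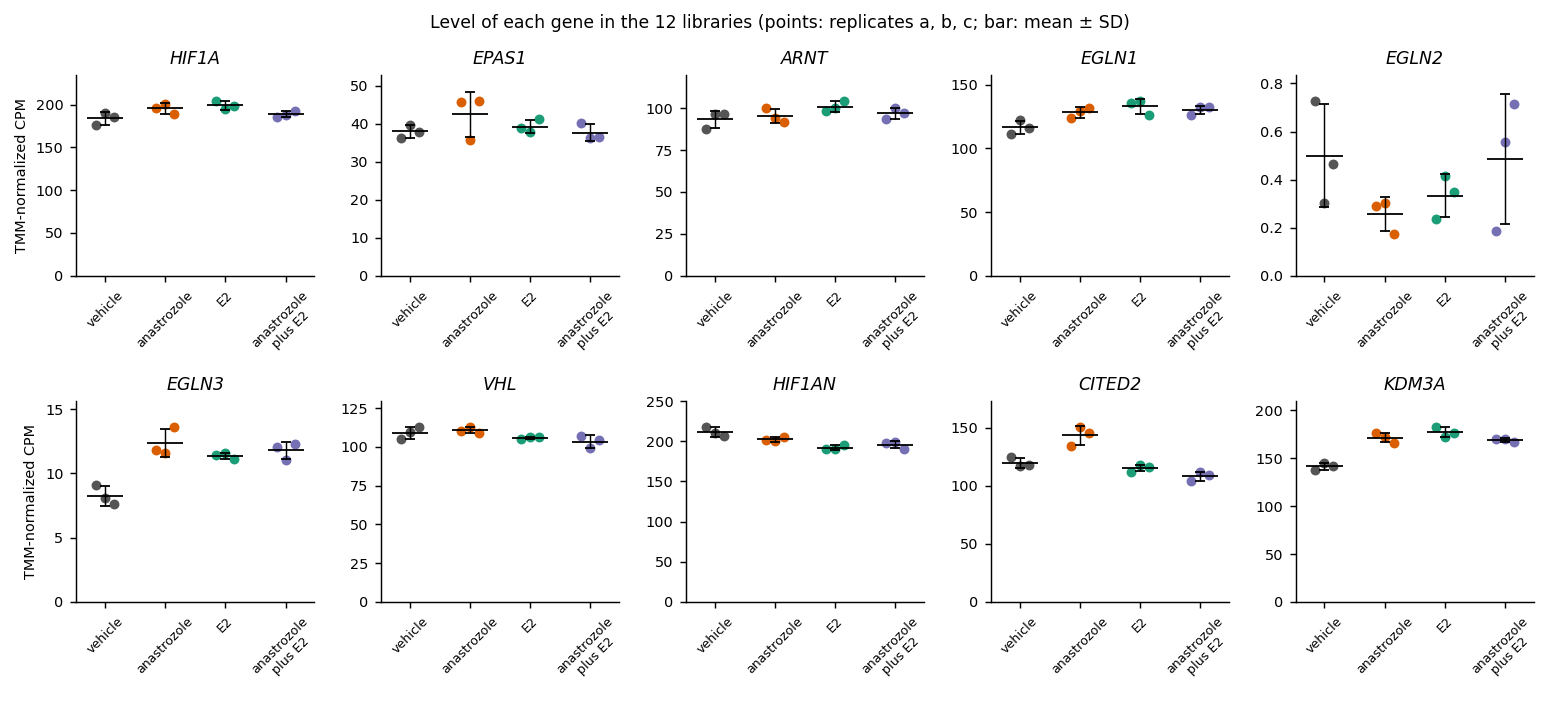
Level of each of the 10 genes in the 12 libraries, in normalized CPM on axes that start at 0. Points are replicates a, b and c, and bars give the mean ± SD of 3. In EGLN3 and KDM3A all treated libraries lie above all vehicle libraries, in CITED2 only the anastrozole libraries lie above vehicle, and EGLN2 stays below 1 CPM.

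Against vehicle, 3 members were higher and none was lower with anastrozole, 4 were higher and 1 was lower with E2, and 3 were higher and 1 was lower with both agents. Calls are those of edgeR's quasi-likelihood test at a Benjamini-Hochberg adjusted p under 0.05 over all genes. The shares of all genes called were 3.67% with anastrozole, 12.0% with E2 and 5.04% with both, and the shares called higher were 1.40%, 6.06% and 2.71%. Genes with more reads are called more often: of the 11037 genes averaging at least 3 log2 CPM, 6.51%, 21.5% and 8.37% were called, and all members but EGLN2 are among those. The members' median log2 fold change was 0.11, 0.08 and 0.01 in the same order, or 0.14, 0.11 and 0.04 without EGLN2, and the median of all genes was 0 in each. KDM3A and EGLN3 were higher with each of the 3 treatments. The 3 comparisons share the vehicle libraries, so they are not independent. Where groups are said not to overlap, this only describes their libraries, as the share of all genes without overlap was not counted.

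**Figure D2:**
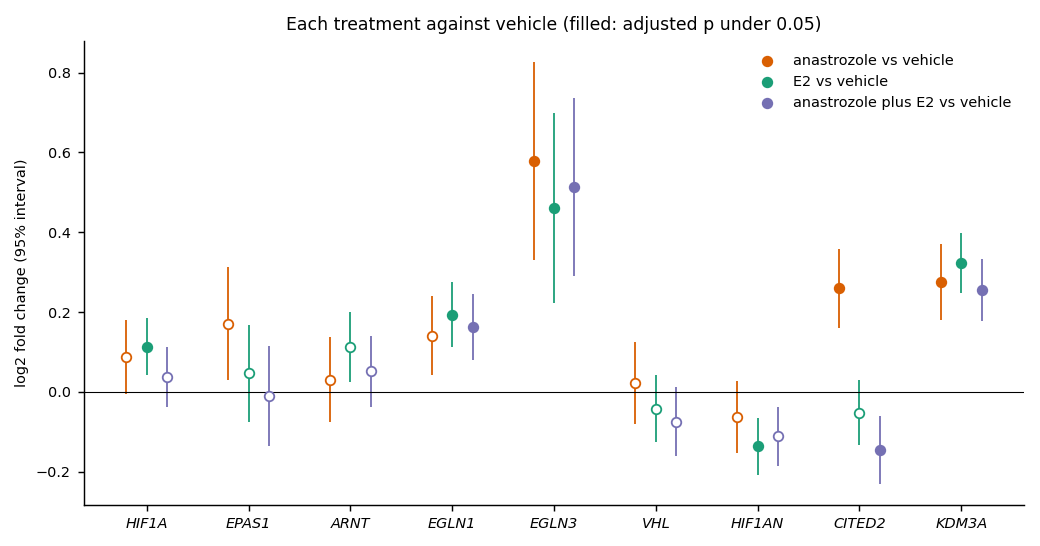
Log2 fold change of 9 genes against vehicle for each treatment, with 95% intervals; filled points passed the adjusted p threshold of 0.05 and EGLN2 is not drawn. EGLN3 has the highest points with all 3 treatments (0.46 to 0.58), and CITED2 lies above 0 with anastrozole and below 0 with both agents.

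Transcripts of HIF1A, an alpha subunit gene, moved little. HIF1A (GRCh37 chr14:62162231-62214977, plus strand) stood at 176, 191 and 186 CPM in vehicle a, b and c, at 196, 201 and 189 with anastrozole, at 205, 195 and 198 with E2, and at 186, 188 and 192 with both. All E2 libraries exceeded all vehicle libraries, and the other treated groups overlapped vehicle. With E2 HIF1A rose by 0.11 ± 0.04 on the log2 scale (SE; adjusted p = 0.020), a gain of 8.16%. That call was lost on leaving out vehicle a, vehicle c, E2 a or E2 c (log2 fold change 0.08 to 0.14 over all 6 fits without 1 library), with DESeq2 (adjusted p = 0.090) and with limma-voom (adjusted p = 0.096). With the GC trend removed the value was 0.03 ± 0.03 (adjusted p = 0.72). Antisense genes are listed beside HIF1A, HIF1A-AS1 at 7.43 to 13.2 CPM and HIF1A-AS2 at 40.3 to 53.6 CPM; the strand setting of the counting is not given in the sources used here, so reads shared with an antisense gene cannot be told apart.

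EPAS1, the other alpha subunit gene, differed most among the anastrozole replicates. Its levels (GRCh37 chr2:46520806-46613836, plus strand) were 36.2, 39.6 and 37.9 CPM in vehicle, 45.7, 35.7 and 46.0 with anastrozole, 38.8, 37.7 and 41.1 with E2, and 40.1, 36.1 and 36.5 with both. Anastrozole a and c were the highest of the 12 libraries, and anastrozole b was the lowest. The log2 fold change with anastrozole was 0.17 ± 0.07 (adjusted p = 0.19), and without anastrozole b it was 0.27, still short of the threshold. With the GC trend removed EPAS1 passed it (0.22 ± 0.06, adjusted p = 0.035). ARNT (GRCh37 chr1:150782189-150849184, minus strand) varied from 87.3, 96.3 and 96.4 CPM in vehicle to 98.1, 100.2 and 104 with E2, which did not overlap, but its difference of 0.11 ± 0.04 missed the threshold (adjusted p = 0.080). In the anastrozole libraries ARNT stood at 99.8, 94.1 and 91.7 CPM, and with both agents at 93.3, 100.1 and 97.2, both within reach of vehicle. HIF3A, the third alpha subunit gene, had at most 2 counts in any library, and ARNT2, a paralog of ARNT, stayed below 1 CPM.

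Among the prolyl hydroxylases, EGLN3 showed the largest called fold change of any member and EGLN1 a smaller one. EGLN3 (GRCh37 chr14:34393433-34931980, minus strand) was at 9.14, 8.06 and 7.62 CPM in vehicle, 11.8, 11.6 and 13.6 with anastrozole, 11.4, 11.6 and 11.1 with E2, and 12.0, 11.1 and 12.3 with both. No treated library fell to the level of any vehicle library. It rose 1.49-fold with anastrozole (log2 0.58 ± 0.13, adjusted p = 0.00081), 1.38-fold with E2 (0.46 ± 0.12, adjusted p = 0.0027) and 1.43-fold with both (0.51 ± 0.11, adjusted p = 4.0e-04). These values rest on 98 to 196 reads per library. They kept the call on leaving out any 1 library. The anastrozole call alone was lost with limma-voom (adjusted p = 0.10), and DESeq2 gave EGLN3 an adjusted p only with both agents (0.032).

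EGLN1, the main oxygen sensor of the pathway in most cells (GRCh37 chr1:231499497-231558033, minus strand), stood at 111, 122 and 116 CPM in vehicle. It was at 124, 129.8 and 132 with anastrozole, at 136, 137 and 126 with E2, and at 127, 132 and 132 with both. Every treated library exceeded every vehicle library, by little in the closest case. The rise passed the threshold with E2 (0.19 ± 0.04, adjusted p = 9.1e-05) and with both agents (0.16 ± 0.04, adjusted p = 0.0054). With anastrozole the value was 0.14 ± 0.05 (adjusted p = 0.10), and it passed in 1 fit of all 12 libraries (adjusted p = 0.035). The call with both agents was lost without vehicle a, combination b or combination c (0.13 to 0.20 over all 6 fits without 1 library), with DESeq2 (adjusted p = 0.062) and with limma-voom (adjusted p = 0.11). Another gene annotated as protein-coding on the same strand covers 55.8% of the EGLN1 exon bases, which matters where the authors' annotation held it. EGLN2 (GRCh37 chr19:41304901-41314339, plus strand) gave 0.175 to 0.728 CPM over all libraries, with intervals of its fold changes that spanned 0 in every comparison.

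HIF1AN (GRCh37 chr10:102288829-102319755, plus strand), which hydroxylates an asparagine of the alpha subunits, was the one hydroxylase gene that fell. It stood at 218, 210.1 and 206 CPM in vehicle and at 190.2, 191 and 195 with E2, without overlap. The decrease with E2 was -0.14 ± 0.04 (adjusted p = 0.0026), a change of -9.06%, and it held on leaving out any 1 library and in all 8 other settings tried. With anastrozole its levels were 201, 200.4 and 206 CPM and the log2 fold change was -0.06 ± 0.05 (adjusted p = 0.59). With both agents they were 197, 199 and 191 CPM, all below vehicle, and the log2 fold change was -0.11 ± 0.04 (adjusted p = 0.060); with the GC trend removed that value was also -0.11 and passed (adjusted p = 0.024). VHL (GRCh37 chr3:10183462-10195351, plus strand), the substrate receptor of the ligase, showed no called difference. Its libraries ran from 105 to 113 CPM in vehicle, 109 to 113 with anastrozole, 105 to 107 with E2 and 99.2 to 107 with both, with log2 fold changes of 0.02, -0.04 and -0.07. The 95% intervals for VHL were -0.08 to 0.12 with anastrozole, -0.13 to 0.04 with E2 and -0.16 to 0.01 with both. In GENCODE 44, 23.5% of the VHL exon bases lie opposite a lncRNA.

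The feedback genes CITED2 and KDM3A both rose with anastrozole and parted ways with E2 and with the combination. KDM3A (GRCh37 chr2:86667770-86719839, plus strand), a histone H3K9 demethylase that is itself a 2-oxoglutarate dioxygenase, stood at 137, 145 and 142 CPM in vehicle, at 176, 172 and 166 with anastrozole, at 182, 172 and 177 with E2, and at 169.8, 170.4 and 167 with both. All 9 treated libraries lay above the 3 vehicle libraries, and among the treated groups only E2 and the combination did not overlap. The rises were 0.28 ± 0.05 with anastrozole (adjusted p = 8.4e-06), 0.32 ± 0.04 with E2 (adjusted p = 1.4e-14) and 0.26 ± 0.04 with both (adjusted p = 4.1e-08). They remained past the threshold on leaving out any 1 library; the anastrozole call was lost with limma-voom (adjusted p = 0.065), and no other setting ended a call. KDM3A is the member after HIF1A with the lowest GC, 43.0%, and with the trend removed its values were 0.24, 0.27 and 0.25.

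CITED2 (GRCh37 chr6:139692944-139695785, minus strand) stood at 125, 117 and 118 CPM in vehicle, 135, 151 and 146 with anastrozole, 112, 118 and 117 with E2, and 104, 112 and 109 with both. The anastrozole libraries were above and the combination libraries below all vehicle libraries, while E2 overlapped vehicle. It rose by 0.26 ± 0.05 with anastrozole (adjusted p = 1.0e-04), was at -0.05 ± 0.04 with E2 (adjusted p = 0.51), and fell by 0.15 ± 0.04 with both (adjusted p = 0.020). The rise held on leaving out any 1 library and was lost with limma-voom (adjusted p = 0.11). The decrease with both agents was lost without vehicle a, vehicle c, combination a or combination c (-0.17 to -0.12 over all 6 such fits), with DESeq2 (adjusted p = 0.0997) and with limma-voom (adjusted p = 0.14).

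Direct comparisons between the treated groups called CITED2 alone. With anastrozole CITED2 was 1.25-fold higher than with E2 (0.32 ± 0.04, adjusted p = 1.9e-09), 1 of 10 members against 1.33% of all genes. In the combination it was lower than with anastrozole (-0.41 ± 0.05, adjusted p = 2.0e-14), again 1 of 10 members, against 2.90% of genes. Both calls held without any 1 library and in all 8 other settings. KDM3A differed between anastrozole and E2 by -0.04 (95% interval -0.12 to 0.04) and EGLN1 by -0.05 (-0.13 to 0.04). EGLN3 differed by 0.13, with a wider interval of -0.10 to 0.35. EPAS1 was at -0.18 ± 0.07 in the combination against anastrozole (adjusted p = 0.15), and it passed with the GC trend removed (-0.22, adjusted p = 0.032) and without anastrozole b.

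Adding anastrozole to E2 gave no called difference in any of the 10 members by edgeR, against 6.74% of all genes. Among genes averaging at least 3 log2 CPM the share was 12.5%, and 0 of 10 is near either share. With the GC trend removed, 198 of the 21132 genes and 0 members were called. DESeq2 and limma-voom also called 0, and 2 members had an unadjusted p under 0.05 in the edgeR test: HIF1A at -0.08 ± 0.03 (adjusted p = 0.18) and CITED2 at -0.09 ± 0.04 (adjusted p = 0.13). The E2 and combination libraries did not overlap in either of these genes, nor in KDM3A. Fold changes followed GC closely in this comparison (rho 0.69), and with the trend removed HIF1A was at 0.01 ± 0.03 (adjusted p = 0.98) and CITED2 at -0.10 ± 0.04 (adjusted p = 0.28). EGLN3, which rose with anastrozole in the absence of E2, was at 0.05 with a 95% interval of -0.15 to 0.26, and KDM3A was at -0.07 with an interval of -0.13 to 0.00, or at -0.01 with the GC trend removed.

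The interaction term, fitted on all 12 libraries, tests whether the anastrozole effect differed when E2 was present. It was called for 4 of the 10 members, all below 0, against 10.9% of all genes called in either direction and 19.9% of those averaging at least 3 log2 CPM. CITED2 had -0.35 ± 0.06 (adjusted p = 3.4e-06) and KDM3A -0.34 ± 0.06 (adjusted p = 1.1e-06), and both held on leaving out any 1 library and in all 7 other settings. EGLN3 had -0.53 ± 0.16 (adjusted p = 0.016), which was lost without vehicle c, anastrozole c or combination b (-0.60 to -0.45 over all 12 fits without 1 library) and with the GC trend removed (-0.50, adjusted p = 0.060). HIF1A had -0.16 ± 0.06 (adjusted p = 0.039), which dropped out on leaving out any of 8 of the 12 libraries in turn (-0.19 to -0.13 over all 12 fits) and with limma-voom (adjusted p = 0.066), and stood at -0.01 with the GC trend removed. EGLN1 was at -0.17 ± 0.06 (adjusted p = 0.051), and at -0.12 with the GC trend removed (adjusted p = 0.30); it was called with DESeq2 size factors (adjusted p = 0.046), with filterByExpr (adjusted p = 0.048) and without vehicle b, anastrozole a or E2 c (-0.21 to -0.14 over all 12 fits). EPAS1 was at -0.23 ± 0.10 (adjusted p = 0.11); it was called with the GC trend removed (-0.31 ± 0.09, adjusted p = 0.027) and without anastrozole b or combination a (-0.33 to -0.17 over all libraries left out). For KDM3A and EGLN3 the term describes levels called higher with each agent alone and with no called difference between the combination and either agent. For CITED2 it describes a level called higher with anastrozole in the absence of E2 and lying at -0.09 in its presence.

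**Figure D3:**
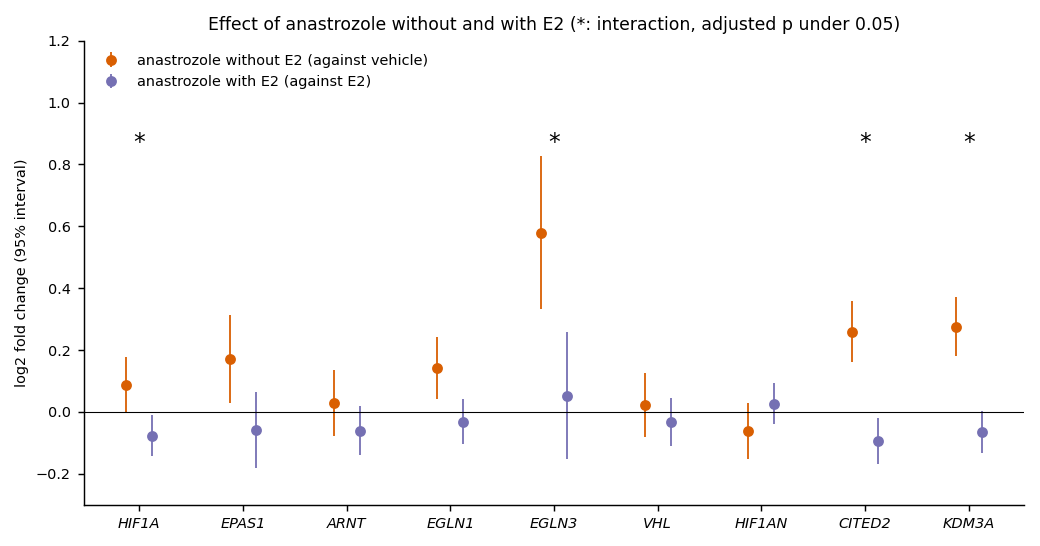
Log2 fold change with anastrozole in the absence of E2 (against vehicle) and in its presence (against E2) for 9 genes, with 95% intervals; a star marks an interaction with an adjusted p under 0.05. The paired points lie farthest apart for EGLN3 (0.58 and 0.05), CITED2 (0.26 and -0.09) and KDM3A (0.28 and -0.07).

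Removing the GC trend moved the members unequally. HIF1A lost most of its difference with E2, from 0.11 to 0.03, and KDM3A kept 0.27 of 0.32. EGLN1 with E2 went from 0.19 to 0.16 and ARNT from 0.11 to 0.08, while EGLN3 went from 0.46 to 0.44 and CITED2 with anastrozole stayed at 0.26. EPAS1, at 53.2% GC, moved the other way. In the combination against vehicle, where fold changes hardly followed GC, HIF1A stayed at 0.04 and KDM3A was at 0.26 before and 0.25 after.

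**Figure D4:**
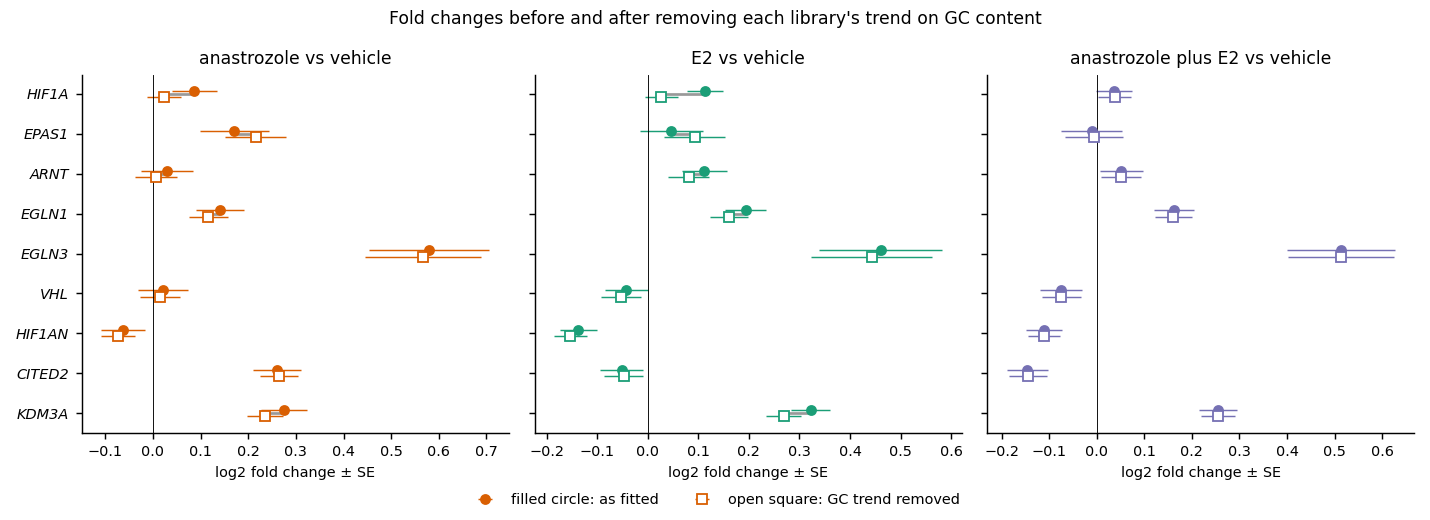
Log2 fold change ± SE against vehicle for 9 genes as fitted (filled circles) and after each library's trend of expression on exonic GC content was removed (open squares). HIF1A shifts from 0.09 to 0.02 with anastrozole and from 0.11 to 0.03 with E2, and with both agents the paired points coincide.

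Lists of other genes of the pathway were read from the same fits. Of 37 HIF target genes, 14 were higher with anastrozole, 25 with E2 and 25 with both, and 0 were lower in any of the 3; the medians were 0.13, 0.21 and 0.20. Of all genes tested, 1.40%, 6.06% and 2.71% were called higher in these comparisons. The list was drawn up with earlier results of these data known, so its counts are a description. VEGFA, the angiogenic growth factor, rose by 0.38, 0.39 and 0.36 on the log2 scale with anastrozole, E2 and both, from 189 ± 4.69 CPM in vehicle. ERO1L, an oxidase of the endoplasmic reticulum, rose by 0.37, 0.54 and 0.44. ANGPTL4, a secreted regulator of lipid metabolism, rose by 0.50, 0.47 and 0.47. P4HA1, a collagen prolyl hydroxylase, rose by 0.32, 0.43 and 0.32. PFKFB3, a glycolytic regulator, rose by 0.41 with E2 and 0.57 with both. SLC2A3 had at most 3 counts in any library. The anastrozole count depended most on the libraries and the test: it was 9 without vehicle a, vehicle c, anastrozole a or anastrozole b, 11 without vehicle b and 15 without anastrozole c, and it fell to 2 with limma-voom, and with the GC trend removed it was 17. In the interaction 14 of the 37 targets were called, all of them below 0, and 23 were not, against 10.9% of all genes called in either direction; the list's median was -0.14 and its highest value 0.16.

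Of 19 genes for partners of HIF and parts of its degradation machinery, 1 was called with anastrozole, 7 with E2 (3 higher and 4 lower) and 1 with both, with medians of -0.03, 0.00 and 0.01; of all genes tested, 3.67%, 12.0% and 5.04% were called. SIAH2, a ubiquitin ligase that acts on the EGLN3 protein, rose by 0.22 with E2 and 0.21 with both. STUB1, a chaperone-linked ubiquitin ligase, fell by 0.22 with anastrozole and by 0.20 with E2. EP300, a HIF coactivator, fell by 0.16 with E2, and HSP90AA1, a chaperone that stabilizes HIF-1alpha, rose by 0.09. Of 20 other 2-oxoglutarate dioxygenases, 2 were higher with anastrozole (KDM6A by 0.20 and KDM7A by 0.18), 4 with E2 (KDM7A by 0.30, JMJD1C by 0.20, KDM5A by 0.12 and KDM5B by 0.11) and 1 with both (KDM4B by 0.17), and 0 were lower in any of the 3. The shares of all genes called higher were 1.40%, 6.06% and 2.71%. Of the genes averaging at least 3 log2 CPM, 6.51%, 21.5% and 8.37% were called in either direction. For these lists no values with the GC trend removed were read, although fold changes followed GC with anastrozole and E2 (rho -0.53 and -0.55). The part of GC in these small differences was not tested.

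**Figure D5:**
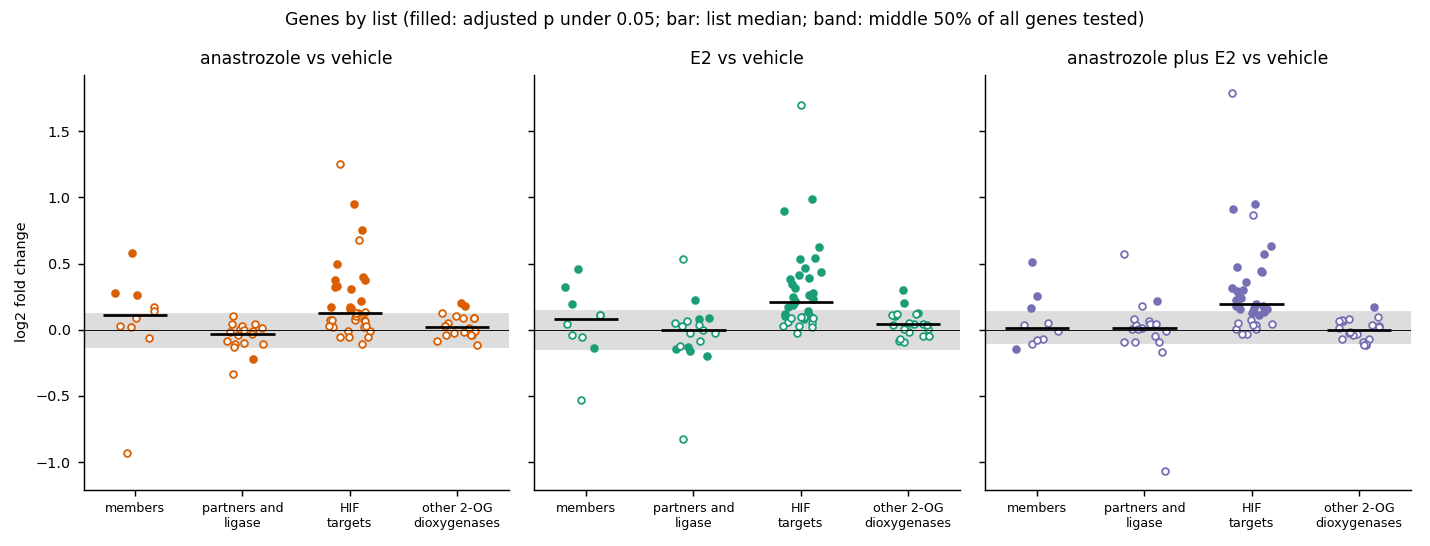
Log2 fold change against vehicle of the 10 members, 19 HIF partners and ligase genes, 37 HIF targets and 20 other 2-oxoglutarate dioxygenases; filled points passed the adjusted p threshold of 0.05, bars are list medians, and the band holds the middle 50% of all genes tested. HIF3A and SLC2A3, with at most 3 counts in any library, are not drawn. Filled target points lie above 0 with every treatment (14, 25 and 25 genes), and the medians of the partner and dioxygenase lists lie between -0.03 and 0.04; the members' medians are 0.11, 0.08 and 0.01.

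The genes most like each called member over the 12 libraries were looked up among 11036 genes averaging at least 3 log2 CPM, by Pearson's r of log2 CPM, as a description. The points share groups and library preparation, and the GC trend was not removed from them. For EGLN3 they were ANGPTL4 (0.950), VEGFA (0.928) and WSB1 (0.918). For KDM3A they were HBP1 (0.974), ERO1L (0.973) and P4HA1 (0.960). For CITED2 they were NBPF25P, ST6GAL1 and ZMYND8 (0.925 each). For HIF1A they were C4orf46 (0.945), TRAPPC13 (0.941) and PPP1R12A (0.940). For EGLN1 they were BEST1 (0.919), OGT (0.913) and ALDH1L2 (0.907). For HIF1AN they were GPR56 (0.955), ANXA9 (0.934) and CHD3 (0.933).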

How the data were processed

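RNA-seq libraries of T47D cells (3 each of vehicle, anastrozole, E2 and anastrozole plus E2) were grouped by the treatment and letter in the labels. The labels give polyA RNA as the molecule and a total RNA kit for library preparation. The authors aligned reads to hg19 with TopHat2 2.0.14 and Bowtie2 2.2.6 and deposited raw read counts per gene symbol from htseq-count, without normalization, in 25375 lines, 5 of them summary lines that were left out of library sizes and tests. The htseq-count version, strand setting and annotation are not given in the sources used here.

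From the counts onward, all values were computed here. The 4238 symbols without a single read in the 12 libraries were dropped. Pairwise comparisons used the 6 libraries concerned and the interaction used all 12. Counts were scaled by TMM and tested with the robust quasi-likelihood F test of edgeR 4.0.16 (R 4.3.3), 2-sided, with Benjamini-Hochberg adjusted p-values over 21132 genes and a threshold of 0.05. The SE of a log2 fold change is its size divided by the square root of F, and intervals are 95%. The script was tested on simulated data. A floor of 3 counts corresponds to 0.177 to 0.303 CPM. Replicate pairs differed by more than sampling noise (chi-square per degree of freedom 1.28 to 4.83). Gene positions, lengths and GC came from GENCODE 44 on GRCh37 by symbol or older symbol (21539 and 1493 of 25370 genes); promoters came from RefSeq.

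Members and lists were chosen with earlier results of these data known. All members were named. From each pathway list and each of the 3 comparisons with vehicle, up to 4 genes with the smallest p among those called were named, plus genes at or under the floor in every library; for likeness, the 3 most correlated genes of each called member. Alternatives were DESeq2 1.42.0 size factors, filterByExpr, DESeq2's test, limma-voom (limma 3.58.1), all 12 libraries in 1 fit, the replicate letter as a block, removal of each library's lowess trend on GC (span 0.5), both together, and leaving out each library.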

Additional observations from a re-analysis of the deposited data

Results flagged for a closer look

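For 4 members the effect of anastrozole without E2 and its effect with E2 differed by the interaction test of edgeR, and each is given here on the log2 scale. EGLN3 had -0.53, with the anastrozole effect at 0.58 without E2 and 0.05 with it. CITED2 had -0.35, with effects of 0.26 and -0.09. KDM3A had -0.34, with effects of 0.28 and -0.07. HIF1A had -0.16, with effects of 0.09 and -0.08. Exonic GC content moved with the same term (Spearman's rho 0.71 over 10847 genes); with the GC trend removed the values were -0.50, -0.36, -0.25 and -0.01 in that order, and CITED2 and KDM3A remained past the threshold. EPAS1, at -0.23 and not called as fitted, was called with the GC trend removed (-0.31). The HIF1A call was also lost with limma-voom.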

How the results depend on the processing

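No called direction among the members turned over under any alternative. Same-letter correlations of deviations from the group mean were weak, from -0.20 to 0.18 over 18 pairs, and 3 exceeded 0.1. The pairs reuse the same 12 libraries, so these values cannot decide whether the letters pair the samples. With the letter as a replicate block, the members past the threshold numbered 3 with anastrozole against vehicle, 5 with E2, 5 with both agents, 1 for anastrozole against E2, 0 for the combination against E2, 1 for the combination against anastrozole and 3 for the interaction; without it they were 3, 5, 4, 1, 0, 1 and 4. The block added HIF1AN with both agents (-0.11, adjusted p = 0.0080) and removed HIF1A from the interaction (-0.16, adjusted p = 0.053). Limma-voom called 0 members with anastrozole against vehicle. DESeq2's test called 3 with E2, where EGLN3 received no adjusted p, and 2 with both agents, where limma-voom also called 2. The combination against anastrozole called 2 members with the GC trend removed, with or without the replicate block. Leaving out 1 library gave 3 members with anastrozole in each case, 4 to 6 with E2, 2 to 4 with both, 1 for anastrozole against E2, 0 for the combination against E2, 1 to 2 for the combination against anastrozole and 2 to 5 for the interaction. The cause of these differences was not tested.

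Counts over all genes moved more. With anastrozole against vehicle the 776 calls became 15 with limma-voom, 419 with filterByExpr, 238 with DESeq2, 1229 with all 12 libraries in 1 fit and 191 to 1651 on leaving out 1 library, where leaving out anastrozole c gave the highest count and vehicle c the lowest. With E2 the 2537 became 1379 with limma-voom, 1407 with DESeq2, and 1599 and 1504 with the GC trend removed without and with the block. With both agents the 1065 became 347 with limma-voom, 476 with DESeq2 and 1588 with GC and block together. That count ran over 682 to 964 without 1 library. For anastrozole against E2 the 280 ran from 70 (limma-voom) to 495 (GC trend removed), and over 107 to 414 without 1 library. The combination against E2 fell from 1424 to 198 with the GC trend removed, and ran over 885 to 1176 without 1 library. The combination against anastrozole ran from 90 (limma-voom) to 823 (all 12 libraries), over 234 to 1706 without 1 library, against 612. The interaction fell from 2295 to 554 with the GC trend removed. EGLN3 and EGLN2 have the fewest reads, so their intervals are the widest.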
